A study of Homo sapiens with 15 samples.

Results

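Polycomb repressive complex genes were followed in K562 cells, an established line of chronic myeloid leukemia that carries the BCR-ABL fusion, exposed for 24 h to the hydroxamate histone deacetylase (HDAC) inhibitor martinostat. The 10 genes were chosen by name, out of 60649 in the deposited count table: EZH1, EZH2, SUZ12, EED, JARID2, PHF19, MTF2, BMI1, RING1 and CBX7. There were 5 groups of 3 libraries, labelled as biological replicates: untreated cells and cells given martinostat in 4 doses, 0.15 µM, 0.25 µM, 0.5 µM or 1 µM. All 15 libraries came from the same unmodified line, and the labels call the control untreated, without naming a vehicle. Each library held polyadenylated RNA, with 23755510 to 32805574 counts assigned to genes.

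Polycomb proteins keep genes silent through histone marks. Polycomb repressive complex 2 (PRC2) methylates a lysine in the tail of histone H3, with EZH2 or its paralog EZH1 as the catalytic subunit, SUZ12 as the scaffold and EED as the subunit that reads the methyl mark and stimulates the enzyme. JARID2, MTF2 and PHF19 are accessory subunits that direct PRC2 to chromatin. Polycomb repressive complex 1 (PRC1) ubiquitinates histone H2A through the E3 ligase RING1 or its paralog RNF2, paired with a PCGF protein such as BMI1, and its canonical form carries a chromobox protein such as CBX7 that binds the mark made by PRC2. EZH2 is best known in dividing blood progenitors, and EZH1 in cells that have slowed or stopped dividing.

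Each of the 10 genes had at least 1 promoter among the RefSeq reference sequences (assembly GRCh38.p14), 14 in all, each spanning 250 bases before to 50 bases after a transcript start. The 4 below belong to the paralogs EZH2 and EZH1, whose ratio was higher in every treated library than in any untreated one, and to PHF19 and CBX7, which had the steepest fall and the steepest rise among the 10. Where RefSeq lists more than 1 start, the one farthest upstream is given. They read 5′ to 3′ on the strand of the gene, and capitals mark matches, on either strand, to an E2F element (TTTNGCGC), an NF-Y box (CCAAT) or an SP/KLF box (GGGCGG).
EZH2, chr7:148884242-148884541, minus strand: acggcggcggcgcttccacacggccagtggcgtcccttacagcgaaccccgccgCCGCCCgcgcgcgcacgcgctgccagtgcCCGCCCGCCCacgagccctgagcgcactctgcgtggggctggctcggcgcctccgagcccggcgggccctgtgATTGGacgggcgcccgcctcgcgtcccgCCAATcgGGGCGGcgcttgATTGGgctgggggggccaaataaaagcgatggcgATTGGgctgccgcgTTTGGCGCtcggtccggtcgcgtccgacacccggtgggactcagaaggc
EZH1, chr17:42744991-42745290, minus strand: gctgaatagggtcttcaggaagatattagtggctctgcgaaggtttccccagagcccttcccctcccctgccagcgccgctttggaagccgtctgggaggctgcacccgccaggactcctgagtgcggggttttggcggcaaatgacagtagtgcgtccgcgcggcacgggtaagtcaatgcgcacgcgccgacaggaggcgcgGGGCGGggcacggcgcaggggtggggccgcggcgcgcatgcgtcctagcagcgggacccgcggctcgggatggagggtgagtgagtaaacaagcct
PHF19, chr9:120877139-120877438, minus strand: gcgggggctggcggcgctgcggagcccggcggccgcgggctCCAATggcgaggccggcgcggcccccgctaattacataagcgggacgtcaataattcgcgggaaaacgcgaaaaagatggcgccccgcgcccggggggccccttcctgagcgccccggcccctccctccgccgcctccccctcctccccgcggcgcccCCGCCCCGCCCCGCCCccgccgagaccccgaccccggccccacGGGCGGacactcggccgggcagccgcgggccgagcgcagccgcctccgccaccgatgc
CBX7, chr22:39152631-39152930, minus strand: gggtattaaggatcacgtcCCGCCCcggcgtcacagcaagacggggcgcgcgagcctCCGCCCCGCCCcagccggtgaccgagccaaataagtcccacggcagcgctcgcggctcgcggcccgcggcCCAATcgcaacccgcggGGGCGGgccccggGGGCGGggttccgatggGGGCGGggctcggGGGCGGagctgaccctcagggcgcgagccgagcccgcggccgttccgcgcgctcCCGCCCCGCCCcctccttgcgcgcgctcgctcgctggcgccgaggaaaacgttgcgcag

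The EZH2 window held 1 E2F element, 4 CCAAT boxes and 4 GGGCGG boxes. The EZH1 window held a single GGGCGG box and neither of the other elements. Of all 35116 RefSeq promoters, 1.79% held the E2F element, 34.6% a CCAAT box and 45.0% a GGGCGG box. No other window of the 10 genes matched TTTNGCGC. This was the only form of the E2F element searched, so elements of another sequence would be missed. The CBX7 window held 9 GGGCGG boxes and 1 CCAAT box, and the PHF19 window 4 and 1. All 4 were rich in CpG, with 46 CpG in the EZH2 window, 30 in that of EZH1, 48 in that of PHF19 and 50 in that of CBX7, against a median of 14 over all promoters. These matches describe letters in a window and were not tested as sites.

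All 10 genes passed the filter on low counts. With martinostat the set moved in both directions. At 1 µM, EZH2, SUZ12, EED, PHF19, MTF2 and BMI1 fell, JARID2 and CBX7 rose, and EZH1 and RING1 did not pass the test (adjusted p under 0.05, edgeR quasi-likelihood F test with Benjamini-Hochberg adjustment over 23711 genes). PHF19 fell from 424 ± 21.2 to 29.4 ± 0.700 CPM (counts relative to the library size scaled by TMM factors; mean ± SD, n = 3), a 14.4-fold drop. JARID2 rose 2.44-fold and CBX7 4.80-fold over the same comparison. EZH2, the main methyltransferase, fell 1.96-fold and EED 2.26-fold.

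By dose, 1 of the 10 genes rose and 5 fell at 0.15 µM, 2 rose and 6 fell at 0.25 µM, then 3 rose and 6 fell at 0.5 µM, and 2 rose and 6 fell at 1 µM. This balance depended on scaling: by library totals 3 rose and 1 fell at 0.15 µM, and 4 rose and 2 fell at both 0.25 and 0.5 µM. The whole table moved with it. By library totals, 9582 of the 23711 genes tested rose and 2118 fell at 0.15 µM. The numbers were 11697 and 3067 at 0.25 µM and 11097 and 4713 at 0.5 µM. Most expressed genes changed too. With TMM scaling, 31.9%, 37.4%, 39.4% and 38.8% of all genes tested rose and 19.4%, 24.8%, 27.6% and 27.5% fell over the doses in rising order. Among the 10128 tested genes averaging 10 CPM or more, to which all but CBX7 belong, 40.2%, 48.7%, 48.7% and 48.4% fell and 21.1%, 22.0%, 26.6% and 26.5% rose. The median log2 fold change of the 10 genes was -0.44, -0.55, -0.54 and -0.54 at the 4 doses, beside -0.28, -0.40, -0.37 and -0.39 for genes of at least 10 CPM and 0.28, 0.32, 0.34 and 0.32 for all genes tested.

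**Figure D1:**
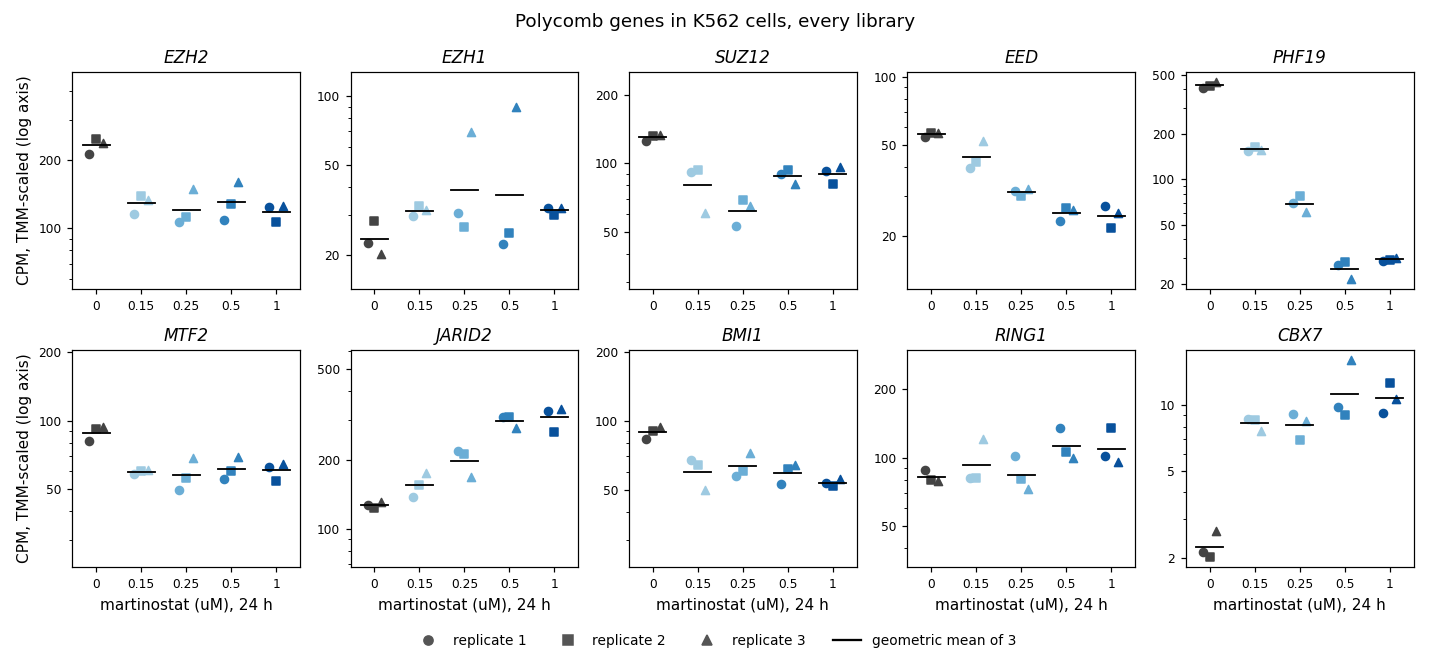
Level of the 10 Polycomb genes in every library, as TMM-scaled CPM on a log axis against the martinostat dose in µM (0 is untreated); symbols mark the replicate number and bars the geometric mean of 3 libraries. PHF19 steps down to below 31 CPM, JARID2 steps up, CBX7 jumps at the lowest dose, and the third replicates at 0.25 and 0.5 µM stand at 69.9 and 89.5 CPM for EZH1.

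The size of the moderate falls depended on how the libraries were scaled. Treated libraries detected more genes: 16783 to 16852 genes had at least 10 counts in untreated libraries and 20063 to 22713 in treated ones, and long noncoding RNAs rose from 1.45-1.61% to 2.64-4.92% of counts. Scaling by library totals moved the median of all genes to 0.64, 0.85, 0.72 and 0.67 at the 4 doses, and TMM restricted to genes of at least 10 CPM moved it to 0.54, 0.74, 0.75 and 0.70. At 1 µM, falls of EZH2, EED and PHF19 and rises of JARID2 and CBX7 passed the test under all 4 scalings (TMM, RLE size factors, library totals and TMM from genes of at least 10 CPM). The falls of SUZ12, MTF2 and BMI1 passed under TMM and RLE but not under the other 2, where 3 of the 10 genes rose and 3 fell. Of all 23711 genes at 1 µM, 10808 rose and 4777 fell by library totals. Under TMM from genes of at least 10 CPM, 11102 rose and 4738 fell. The calls of MTF2 and BMI1 were absent under those 2 scalings at every dose. Changes of the genes other than CBX7 are therefore also given by their place among the 10128 genes of at least 10 CPM. A shift common to all genes leaves such a place unchanged. The places come from the TMM fit, as does the limit of 10 CPM, and were not computed under the other scalings.

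**Figure D2:**
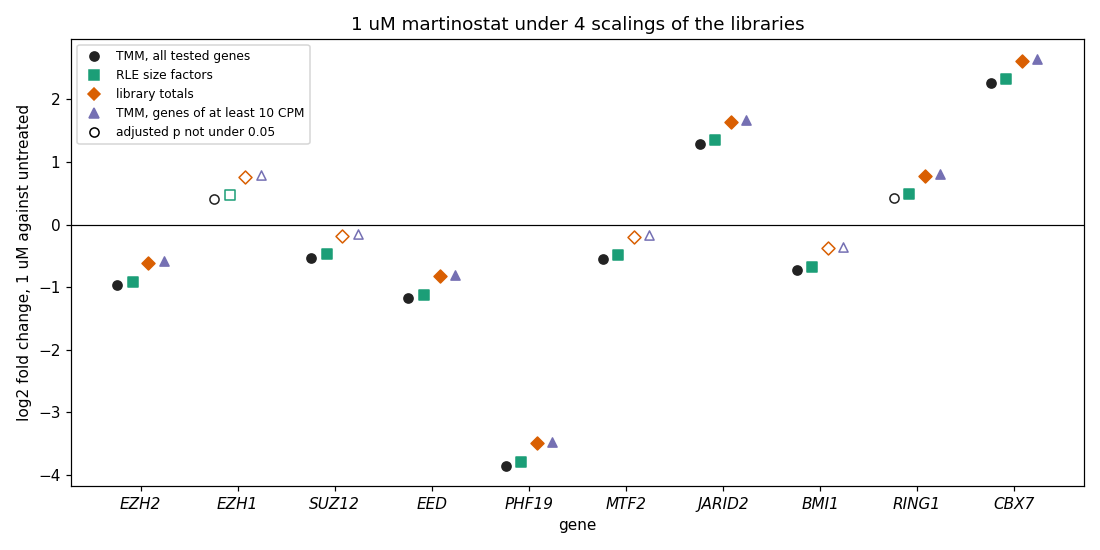
Log2 fold change of each Polycomb gene at 1 µM martinostat against untreated cells under 4 scalings of the libraries; filled symbols have an adjusted p under 0.05. PHF19, EED and EZH2 stay below 0 and JARID2 and CBX7 above 0 with filled symbols throughout, while SUZ12, MTF2 and BMI1 turn open under library totals and under TMM from genes of at least 10 CPM.

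EZH2 (chr7:148807257-148884321, minus strand) stood at 212, 247 and 238 CPM in the untreated libraries and at 116, 139 and 133 CPM after 0.15 µM. It read 106, 112 and 148 CPM after 0.25 µM, 108, 127 and 159 CPM after 0.5 µM, and 124, 107 and 125 CPM after 1 µM. Every treated library was below every untreated one, and the 4 treated groups overlapped each other. The log2 fold change was -0.85 after 0.15 µM (adjusted p = 0.000254), -0.93 after 0.25 µM (6.94e-05), -0.82 after 0.5 µM (0.000202) and -0.97 after 1 µM (3.51e-05), each with a standard error (SE) of 0.16. Library totals gave -0.49, -0.38 and -0.41 at the 3 lower doses, none of which passed (adjusted p = 0.06005, 0.116 and 0.0866), and TMM from genes of at least 10 CPM lost the call at 0.5 µM (-0.39, adjusted p = 0.0586). No step between neighbouring doses passed the test. In rank, EZH2 lay at percentile 16.8 of expressed genes at 0.15 µM and at percentile 30.2 at 1 µM.

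EZH1 (chr17:42700275-42745049, minus strand) went the other way in the group means, without passing the test at any dose. It read 22.7, 28.4 and 20.3 CPM without martinostat, 29.7, 32.8 and 31.5 CPM after 0.15 µM and 32.2, 30.1 and 32.3 CPM after 1 µM, with no overlap at either dose. At 0.25 µM the values were 30.7, 26.7 and 69.9 CPM and at 0.5 µM 22.5, 25.1 and 89.5 CPM, so that the third replicate of each stood far above the other 13 libraries. The same 2 libraries stood apart over all genes, at 74.8 and 79.6 on the third principal component (4.14% of the variance), where the other 13 lay between -48.0 and 19.3. The log2 fold change at 1 µM was 0.41 ± 0.47 (SE; adjusted p = 0.466) with all libraries, and 0.45 (adjusted p = 0.00407) without those 2. At 0.15 µM it was 0.40 (adjusted p = 0.511) with and 0.40 (adjusted p = 0.0120) without them. At 0.5 µM it was 0.95 with all libraries and -0.0007 without the third replicate of that dose. Library totals called EZH1 at 0.25 µM (1.42, adjusted p = 0.0408) and 0.5 µM (1.44, adjusted p = 0.0355), the doses with those 2 libraries. TMM from genes of at least 10 CPM also called it at these doses (1.28 and 1.42, adjusted p = 0.0480 and 0.0290). Fits of the 2 groups alone called EZH1 at 0.15 µM (0.43, adjusted p = 0.0132), 0.25 µM (0.92, 0.0245) and 1 µM (0.47, 0.00266). They did not call it at 0.5 µM (1.025, adjusted p = 0.0947). The gene lay between percentiles 72.8 and 84.3 of expressed genes at the 4 doses.

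Within a library, the ratio of EZH1 to EZH2 does not depend on scaling. Per kilobase of exon, untreated cells held 0.165, 0.177 and 0.132 EZH1 counts for each EZH2 count, and cells at 1 µM held 0.401, 0.436 and 0.398. At 0.15 µM the ratios were 0.395, 0.364 and 0.366. The ratio was 2.62 times higher at 1 µM and 2.39 times higher at 0.15 µM than in untreated cells, and every treated library of all 4 doses lay above every untreated one. With 3 libraries against 3, an exact two-sided permutation test cannot go below p = 0.1, which it reached at each dose (0.123 after Benjamini-Hochberg adjustment over 16 paralog ratio tests). EZH2 remained the more abundant of the pair per kilobase in all 15 libraries, by 6.38 times in untreated cells and 2.43 times at 1 µM.

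SUZ12 (chr17:31937007-32001038, plus strand), the scaffold of PRC2, read 126, 131 and 132 CPM without martinostat. It read 91.6, 93.6 and 60.5 CPM after 0.15 µM, 53.2, 69.0 and 64.9 CPM after 0.25 µM, 90.1, 93.6 and 80.7 CPM after 0.5 µM, and 92.9, 80.8 and 96.3 CPM after 1 µM. All treated libraries were lower, and the lowest group was the 0.25 µM one, not the highest dose. On the log2 scale the fold change was -0.66 after 0.15 µM, -1.06 after 0.25 µM, -0.56 after 0.5 µM and -0.53 after 1 µM, with adjusted p from 1.35e-05 at 0.25 µM to 0.00664 at 1 µM. From 0.25 to 0.5 µM SUZ12 rose again by 0.50 on the log2 scale (adjusted p = 0.0224), and the 2 groups did not overlap. Under library totals the fall passed at 0.25 µM (-0.53, adjusted p = 0.0121) and at no other dose. At 1 µM it lay at percentile 44.9 of expressed genes, and at 0.25 µM at percentile 21.4.

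EED (chr11:86201212-86278813, plus strand) declined over the doses. Its values were 54.3, 56.6 and 56.3 CPM without martinostat, 39.6, 42.3 and 52.2 CPM after 0.15 µM and 31.4, 30.0 and 32.0 CPM after 0.25 µM. They were 23.2, 26.6 and 26.1 CPM after 0.5 µM and 27.1, 21.6 and 25.1 CPM after 1 µM. Every treated library was below every untreated one, and the 0.5 and 1 µM groups overlapped. At 0.15 µM the log2 fold change of -0.32 missed the threshold (adjusted p = 0.0575). It was -0.84 after 0.25 µM (adjusted p = 3.04e-05), -1.14 after 0.5 µM (6.67e-07) and -1.18 after 1 µM (4.18e-07), each with an SE of 0.14. Library totals lost the call at 0.25 µM (-0.31, adjusted p = 0.0966) and kept those at 0.5 and 1 µM. The step from 0.15 to 0.25 µM was a log2 change of -0.52 (adjusted p = 0.0173). At 1 µM the gene lay at percentile 24.1 of expressed genes.

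Among the accessory subunits, PHF19 (chr9:120855651-120894896, minus strand), a Tudor-domain protein of PRC2 also known as PCL3, changed most. It read 406, 419 and 448 CPM without martinostat, 155, 164 and 157 CPM after 0.15 µM and 70.1, 77.5 and 60.3 CPM after 0.25 µM. At 0.5 µM it read 27.1, 28.4 and 21.6 CPM and at 1 µM 28.9, 29.2 and 30.2 CPM. No library of any dose from 0 to 0.5 µM overlapped another dose. The log2 fold change was -1.42 after 0.15 µM, -2.61 after 0.25 µM, -4.05 after 0.5 µM and -3.85 after 1 µM, with an SE of 0.14 to 0.15 and adjusted p from 8.94e-08 down to 1.42e-13. Both of the lower steps passed the test, by -1.20 from 0.15 to 0.25 µM (adjusted p = 3.56e-05) and by -1.43 from 0.25 to 0.5 µM (2.96e-07). Among expressed genes, PHF19 lay at percentile 1.84 after 0.15 µM and at 0.356 to 0.691 at the other doses.

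MTF2 (chr1:93079235-93139079, plus strand), the second Polycomb-like subunit, changed far less. Untreated cells held 81.2, 91.5 and 93.3 CPM, cells at 0.15 µM 58.5, 60.3 and 60.6 CPM, and cells at 0.25 µM 49.7, 55.7 and 68.3 CPM. Cells at 0.5 µM held 55.3, 59.9 and 69.5 CPM and cells at 1 µM 62.8, 54.5 and 64.8 CPM. All treated libraries were lower than all untreated ones, with no order among the doses. Its log2 fold change ran from -0.61 after 0.25 µM to -0.53 after 0.5 µM (adjusted p = 0.000911 and 0.00287). MTF2 lay between percentiles 32.5 and 45.0 of expressed genes at the 4 doses, close to the middle.

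JARID2 (chr6:15246069-15522042, plus strand), a Jumonji-family subunit without demethylase activity, rose with dose. Its values were 127, 123 and 131 CPM without martinostat, 137, 156 and 176 CPM after 0.15 µM and 219.6, 211 and 169 CPM after 0.25 µM. They reached 308, 310.1 and 276 CPM after 0.5 µM and 328, 264 and 334 CPM after 1 µM. Every treated library lay above every untreated one, and the 0.5 and 1 µM groups overlapped. The log2 fold change of 0.30 after 0.15 µM missed the threshold (adjusted p = 0.0948), and rises of 0.66 after 0.25 µM (0.000746), 1.23 after 0.5 µM (6.18e-07) and 1.28 after 1 µM (3.64e-07) passed, each with an SE of 0.15. Under library totals JARID2 also rose at 0.15 µM (0.66, adjusted p = 0.000263). The step from 0.25 to 0.5 µM was 0.58 (adjusted p = 0.00538). At 1 µM JARID2 lay at percentile 86.6 of expressed genes.

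Of the PRC1 genes, BMI1 (chr10:22321099-22331484, plus strand), the PCGF subunit known for self-renewal of blood stem cells, read 83.5, 90.0 and 93.8 CPM without martinostat. It read 67.7, 63.8 and 49.9 CPM after 0.15 µM, 57.2, 60.5 and 72.6 CPM after 0.25 µM, 52.8, 61.6 and 64.0 CPM after 0.5 µM, and 53.7, 51.8 and 55.5 CPM after 1 µM. All treated libraries were lower, and no step between doses passed the test. Log2 fold changes were -0.56, -0.49, -0.58 and -0.73 at the 4 doses (adjusted p = 0.00275, 0.00561, 0.00132 and 0.000165). BMI1 lay between percentiles 33.2 and 46.1 of expressed genes, and at 0.25 µM library totals gave it a log2 fold change of 0.05. It shares 1000 exon bases (22.8%) with the read-through gene COMMD3-BMI1, which had 0 counts in every library, and its level is uncertain to that extent.

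RING1 (chr6:33208500-33212722, plus strand), an E3 ligase of PRC1, read 88.4, 80.0 and 78.8 CPM without martinostat, 81.2, 81.7 and 120.3 CPM after 0.15 µM and 102, 80.3 and 72.6 CPM after 0.25 µM. At 0.5 µM it read 134, 105 and 99.2 CPM and at 1 µM 101, 135 and 95.2 CPM. The 2 lower doses overlapped untreated cells, and the 2 higher ones did not. Its log2 fold change was 0.46 after 0.5 µM (SE 0.18, adjusted p = 0.0364) and 0.42 after 1 µM (SE 0.18, adjusted p = 0.0511). The call at 0.5 µM was lost without any single untreated library and without the first replicate at 0.5 µM (0.31 to 0.50 over these 4 fits). At 1 µM RING1 rose under the 3 other scalings, by 0.48 with RLE (adjusted p = 0.0277), 0.77 with library totals (0.000628) and 0.80 with TMM from genes of at least 10 CPM (0.000684). It lay between percentiles 67.3 and 74.0 of expressed genes at the 4 doses.

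Its paralog RNF2, the main H2A ligase in many cells, was 61.5 ± 4.49 CPM without martinostat and 29.2 ± 0.840 CPM after 1 µM. RNF2 fell by 0.95 and 1.07 on the log2 scale at 0.5 and 1 µM and did not pass the test at the lower doses. Per kilobase, the ratio of RING1 to RNF2 was 3.38, 2.69 and 2.65 in untreated libraries and 7.58, 10.1 and 6.79 after 1 µM, 2.79 times higher (exact permutation p = 0.1). It was 8.82, 6.74 and 7.33 after 0.5 µM, also apart from untreated cells, while at 0.15 and 0.25 µM the groups overlapped.

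CBX7 (chr22:39120167-39152680, minus strand) was the scarcest of the 10 genes and the one that rose most. It had 52, 52 and 68 counts in the untreated libraries (2.13, 2.01 and 2.66 CPM) and 247, 243 and 223 counts at 0.15 µM (8.68, 8.58 and 7.67 CPM). It read 9.12, 6.94 and 8.49 CPM after 0.25 µM, 9.85, 9.04 and 16.2 CPM after 0.5 µM, and 9.23, 12.7 and 10.7 CPM after 1 µM. The rise was already present at the lowest dose, with a log2 fold change of 1.87 (SE 0.24, adjusted p = 3.31e-06), and was 1.85, 2.37 and 2.26 at the higher doses. No step between neighbouring doses passed the test. Exons of other genes cover 21.6% of its exon bases, among them those of an opposite-strand long noncoding RNA with 4 to 155 counts per library. Whether the counting used strand is not given in the sources used here, so reads of that gene and of CBX7 may not be fully told apart.

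Per kilobase, CBX8, a chromobox paralog, outnumbered CBX7 by 12.7 times in untreated cells and 5.04 times at 1 µM. The ratio of CBX7 to CBX8 was 0.0793, 0.0684 and 0.0901 in untreated libraries and 0.177, 0.193 and 0.228 at 1 µM, with no overlap at any dose (exact permutation p = 0.1 each). For BMI1 and its paralog PCGF2, the ratio was 1.26, 1.27 and 1.31 in untreated libraries, 1.11, 0.982 and 0.702 at 0.15 µM and 1.70, 1.72 and 1.46 after 1 µM. It was thus below the untreated libraries at 0.15 µM and above them at 1 µM, the 0.25 µM group overlapped them, and the smallest possible p was reached at 0.15, 0.5 and 1 µM (exact permutation p = 0.1).

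**Figure D3:**
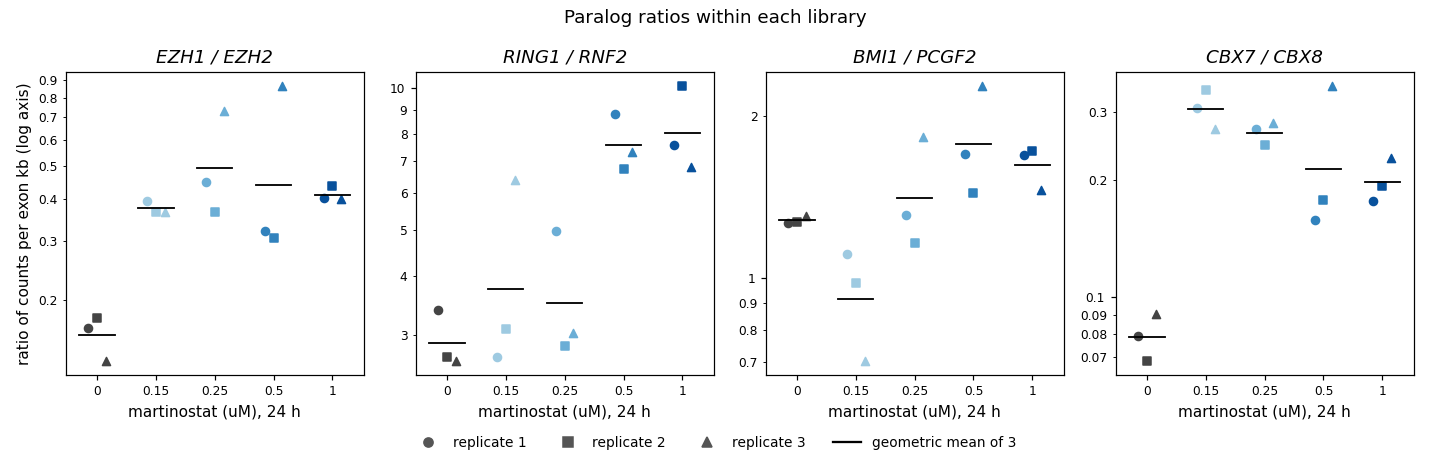
Ratio of counts per kilobase of exon for 4 pairs of Polycomb paralogs in each library, on a log axis, against the martinostat dose in µM; symbols mark the replicate number and bars the geometric mean. EZH1/EZH2 and CBX7/CBX8 lie above the untreated libraries at every dose, and RING1/RNF2 at 0.5 and 1 µM.

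**Figure D4:**
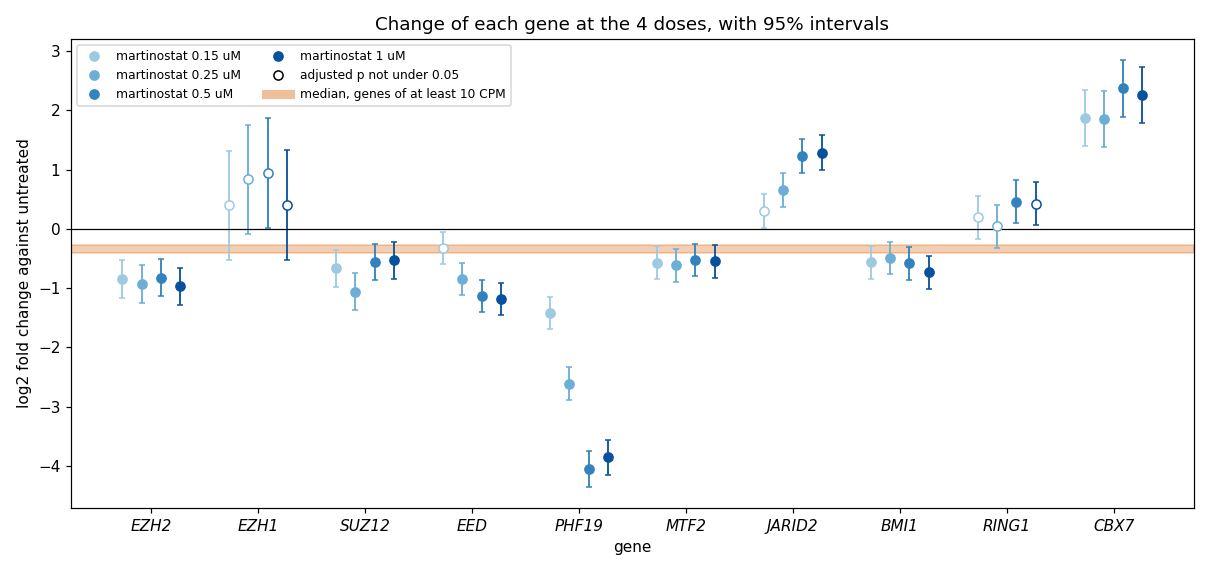
Log2 fold change of each gene against untreated cells at the 4 doses, with bars of 1.96 SE on either side; open symbols have an adjusted p of 0.05 or more, and the band spans the medians of genes of at least 10 CPM. PHF19 drops to -4.05, JARID2 and CBX7 climb to 1.28 and 2.37, and MTF2 and BMI1 lie below the band by less than EED and PHF19 do at 0.25 to 1 µM.

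Between neighbouring doses, EED and PHF19 changed from 0.15 to 0.25 µM, where 12.3% of all genes did. From 0.25 to 0.5 µM, SUZ12, JARID2 and PHF19 changed, where 30.4% of all genes did. Same-numbered libraries deviated together in these 2 groups, most in the third replicates (r = 0.542), which stood apart over all genes. Deviations from a group mean sum to 0, so these libraries also shape those of the other replicates. Pairing apart from them was not tested. A fit of the 6 libraries with the replicate number as a block called 6 of the 10 genes, beside 9935 of all 21562 genes tested in it. It added a fall of EED (-0.31, adjusted p = 0.0362) and rises of RING1 (0.41, adjusted p = 0.00238) and CBX7 (0.48, adjusted p = 0.0388). Without the third replicates, and without a block, EED (-0.29, adjusted p = 0.178), RING1 (0.42, adjusted p = 0.143) and CBX7 (0.25, adjusted p = 0.432) did not pass the test. From 0.5 to 1 µM no gene of the table was called (0%), with 372 of 23711 at an unadjusted p under 0.05 and 0 of the 10 Polycomb genes among them. DESeq2 also called 0, and limma on log2(FPKM + 1) called 1, or 13 with every gene above 0. Between 0.15 and 1 µM, EED (-0.86) and PHF19 (-2.43) fell and JARID2 (0.98) rose, where 44.5% of all genes changed. EZH2, SUZ12, MTF2 and BMI1 differed by -0.17 to 0.14 between these doses and none passed the test. Over the 5 groups at once, 8 of the 10 genes passed, all but EZH1 (adjusted p = 0.359) and RING1 (0.0884), beside 73.6% of all genes.

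The order of the genes differed between untreated and treated cells. In untreated cells, expressed as CPM per kilobase of exon not shared with other genes, the levels were PHF19 64.3 ± 3.21, RING1 45.5 ± 2.89, BMI1 26.2 ± 1.54, EZH2 21.6 ± 1.67, JARID2 20.3 ± 0.601, SUZ12 19.8 ± 0.550, MTF2 15.0 ± 1.10, EED 8.31 ± 0.186, EZH1 3.41 ± 0.596 and CBX7 0.387 ± 0.0594 (SD, n = 3). The ranges of EZH2 and JARID2, and of JARID2 and SUZ12, overlapped, and the other neighbours in this order were apart. The exon bases are those of all annotated transcripts of a gene merged. Per length of the transcripts made in K562, the levels and their order may differ. At 1 µM RING1 (60.9 ± 11.8) and JARID2 (49.5 ± 6.21) led, and PHF19 (4.46 ± 0.106) had dropped to the eighth place, where its range overlapped that of EZH1 (4.51 ± 0.177). EZH2 (11.0 ± 0.958) and MTF2 (10.3 ± 0.924) also overlapped.

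The genes whose log2 CPM followed each member most closely over the 15 libraries, among 10128 genes of at least 10 CPM, differed between members. These 15 points share 5 doses, so a high Pearson r reflects the dose pattern and is given as a description. PHF19 was closest to PPIF and IRAK1 (r = 0.998 and 0.997), EED to SAFB, ANAPC7 and HNRNPD (0.990, 0.990 and 0.985), and JARID2 to TUFT1, HEXIM1 and H4C8 (0.978, 0.977 and 0.977). EZH2 was closest to ZC3H14, PATL1 and MPHOSPH10 (0.980 to 0.981), and MTF2 to EZH2 itself (0.975), SF3B1 and ZC3H14. SUZ12 was closest to ARL6IP6, KNTC1 and UBE2G1 (0.962 to 0.981), and BMI1 to CDC14A, MARCHF7 and DPY19L3 (0.971 to 0.976). EZH1 was closest to ZNF83, ENTPD4 and ZNF731P (0.942 to 0.961), RING1 to DBNL, FLOT1 and C2orf68 (0.903 to 0.943), and CBX7 to BICDL1, UNC13A and COL6A3 (0.974 to 0.975).

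The other genes of the Polycomb system were read from 5 lists of 47 genes, all of which passed the filter. EZHIP, SCML1, AUTS2 and ASXL3, with under 10 counts in at least 1 untreated library, are left out of the counts below. For these counts at 1 µM, 26.5% of genes of at least 10 CPM rose and 48.4% fell. Over all 23711 genes tested, 38.8% rose and 27.5% fell. By library totals, 10808 of all genes tested rose and 4777 fell. The lists were not tested against these shares. Of 7 other PRC2 subunits, 1 rose and 4 fell at 1 µM, with a median log2 fold change of -0.38 (-0.03 by library totals). The histone-binding subunits RBBP4 and RBBP7 fell by 1.28 and 0.77 on the log2 scale, RBBP4 from 352 to 145 CPM and RBBP7 from 178 to 104 CPM in the group means. AEBP2, a DNA-binding accessory subunit, fell by 1.13. PHF1, the remaining Polycomb-like protein, rose by 0.69, from 32.2 to 51.8 CPM, at 1 µM and by 0.72 after 0.5 µM, and did not pass at the lower doses. EZHIP, an inhibitor of PRC2, was picked out after its values were seen: it had 0 counts in the 3 untreated libraries and 30, 28 and 36 counts at 0.15 µM, 50, 69 and 59 at 0.25 µM, 105, 148 and 135 at 0.5 µM, and 130, 113 and 109 at 1 µM. At 1 µM that is at least 104-fold higher than the limit set by 3 counts over the untreated group, at a level of 4.11 CPM.

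Of 11 other canonical PRC1 subunits, 4 rose and 5 fell at 1 µM, with a median of -0.14, while by library totals 5 rose and 4 fell with a median of 0.21. Of the chromobox genes, CBX8 rose by 0.94 and CBX2 by 0.56, and CBX6 (-0.14) did not pass at 1 µM, although it rose by 0.63 after 0.15 µM. Of the polyhomeotic genes, PHC1 rose by 1.83, from 8.14 to 29.0 CPM, and PHC2 fell by 1.28, from 107 to 44.4 CPM. PCGF2 fell by 1.06.

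Of 16 variant PRC1 subunits, 2 rose and 9 fell at 1 µM (median -0.68), and by library totals 4 rose and 8 fell (median -0.32). PCGF6, the PCGF protein of the E2F6-linked form, fell from 43.6, 42.6 and 38.2 CPM to 6.39, 7.63 and 6.38 CPM (log2 fold change -2.61 ± 0.21, adjusted p = 2.39e-09). Its partners L3MBTL2 and CBX3 fell by 2.10 and 1.92. In the H2A deubiquitinase list, PR-DUB, 1 of 7 genes rose and 3 fell (median -0.42), among them MBD5 (0.46) and ASXL2 (-0.68). Scaled by library totals, all 3 PR-DUB falls, that of ASXL2 included, failed the test, and the list's median became -0.07. Both demethylases of the PRC2 mark, KDM6A (0.44, adjusted p = 0.0376) and KDM6B (0.64, adjusted p = 0.00569), rose at 1 µM and at 0.5 µM, while KDM6A fell by 0.64 after 0.15 µM, a call that neither library totals nor TMM from genes of at least 10 CPM gave. The falls of RBBP4, AEBP2, PHC2 and PCGF6 and the rises of CBX8 and PHC1 at 1 µM passed under all 4 scalings.

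Developmental regulators known as Polycomb targets in other cells were read as a list of 30 genes, of which 24 passed the filter. In untreated cells 13 of the 30 had 0 counts and 7 had a mean of at least 1 CPM, and at 1 µM 17 had a mean of at least 1 CPM. Over the whole table, 16783 to 16852 genes had at least 10 counts in untreated libraries and 21016 to 21521 at 1 µM. Genes that passed through the treated groups alone had to differ, so no count over all 24 is used. From the same 30 genes, 8 were chosen for having at least 10 counts in every untreated library. Of these 8, 1 rose and 6 fell at 1 µM, with a median log2 fold change of -1.04. By library totals 2 rose and 5 fell, with a median of -0.69. Over all genes tested, 38.8% rose and 27.5% fell at 1 µM, but those genes were not chosen by their untreated counts. A fit of genes with at least 10 counts in every library called 4998 higher and 4692 lower at 1 µM, with a median of 0.05. A choice by untreated counts favours genes that can fall. The 8 genes are therefore described only, and not set against either share. At 1 µM the highest levels were those of GATA6, GATA4 and SOX1. GATA4, an endoderm and heart factor, rose from 0.265 to 8.78 CPM after 1 µM, whereas GATA6 was 22.0 CPM without martinostat, 45.0 CPM after 0.15 µM and 12.7 CPM after 1 µM. SOX1, a neural factor, fell from 40.2 to 7.96 CPM. Of the INK4 locus, a classic BMI1 and EZH2 target that is deleted in K562, CDKN2B had 0 counts in all 15 libraries and CDKN2A 8 counts in 1 library at 0.25 µM and 0 in the rest.

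The line and its state were checked with markers. All 8 erythroid markers expected in K562 were present in untreated cells, at a summed 3591 to 3922 CPM, and 7 fell at 1 µM to a sum of 845 to 976 CPM, with GATA1 going from 328 to 18.8 CPM. HBG1, a fetal globin gene, went from 126 to 95.3 CPM and did not pass the test. All 12 proliferation markers fell at 1 µM, from a sum of 5552-6006 to 1549-1727 CPM (median log2 fold change -1.92). Summed T cell, B cell, and monocyte and granulocyte markers were 3.55-5.07, 2.28-4.70 and 3.64-4.62 CPM without martinostat and 2.27-4.36, 8.27-8.98 and 6.32-7.08 CPM after 1 µM. At 0.15 µM they were 16.9-24.2, 5.66-8.26 and 16.4-22.4 CPM. CD2, MS4A1, MPO and ELANE were at 0 in untreated cells. Of the 3 fibroblast markers, COL1A1 rose from 4.37 to 398 CPM and COL1A2 fell from 18.9 to 9.70 CPM at 1 µM, and DCN (0.132 and 0.326 CPM) did not pass the test. The part of these shifts in the Polycomb values was not tested, and in bulk RNA fewer cells of a type and less RNA per cell cannot be told apart.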

How the data were processed

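Polyadenylated RNA of 15 K562 libraries was sequenced from a directional kit. The authors trimmed the reads (Trim Galore 0.6.10), aligned them to hg38 with HISAT2 2.2.1, handled alignments with SAMtools 1.21 and counted them per gene with featureCounts 1.5.3 on GENCODE release 38, and the deposited counts are raw whole numbers per gene. The strand setting is not given in the sources used here. The deposited FPKM values were made by the authors from these counts, and for 94.4% of 48212 genes with counts and a position their length term equals the genomic span of the gene rather than its exons (within 0.001), so they were used for an alternative only.

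Counts were tested with edgeR 4.0.16 in R 4.3.3 (quasi-likelihood F test, robust, filterByExpr by group, TMM scaling, all 15 libraries, group as the only term). Of 60649 genes, 23711 passed the filter, and Benjamini-Hochberg adjustment ran over these, with calls at an adjusted p under 0.05. CPM were scaled by the TMM factors. Of the 60649 rows, 60463 had a gene symbol, and rows without one were kept under their gene ID. The common dispersion was 0.052 (biological coefficient of variation 0.228) with 10 residual degrees of freedom. Intervals are 1.96 SE on either side of the estimate. Per-kilobase levels used exon bases of GENCODE release 44 that no other gene shares, merged over all transcripts of a gene. Levels and ratios between genes depend on this length, and their changes with dose do not. Gene positions come from that release. Paralog ratios were compared by exact two-sided permutation over 3 against 3 libraries. Totals of 23755510 to 32805574 counts set the precision: CBX7, the scarcest gene, rested on 52 to 68 counts per untreated library. The code was tested on simulated data.

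Alternatives were other scalings, other filters, DESeq2 1.42.0, limma 3.58.1 on log2(FPKM + 1) and log2(FPKM + 0.1), the 2 groups alone, a replicate block, and leaving out each library. Without the third replicates at 0.25 and 0.5 µM, the steps between doses, the block over 2 groups, and list counts over genes with at least 10 counts in every untreated library were added after seeing the data. Same-numbered libraries correlated above 0.1 (of their deviations from group means) between 0.25 and 0.5 µM only, at 0.235, 0.236 and 0.542, and at most at 0.0811 elsewhere.

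Members and lists were chosen with earlier results of these data known. All 10 members are named, and results for some other genes are not reported here. Of other lists, fixed paralogs and up to 3 genes per list were named, those with the largest change at 1 µM among genes of at least 5 CPM called the same way at 4 doses, and for developmental regulators the 3 highest at 1 µM. Promoter sequences are RefSeq's (GRCh38.p14).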

Additional observations from a re-analysis of the deposited data

How the results depend on the processing

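Over 1603 combinations of a result and an alternative, 1440 were labelled the same, 56 stronger, 90 weaker and 17 reversed in sign. For a fold change, the same meant that direction and side of the threshold were kept. For a number of members called, it meant a number near the main one, not the same genes. The exact p of a paralog ratio cannot go below 0.1, so these ratios had no call to lose. At every alternative, PHF19 fell and CBX7 rose at all 4 doses, and JARID2 rose and EED fell at 0.5 and 1 µM. Limma on log2(FPKM + 1), with every gene above 0, called 3 members at 0.15 µM, 5 at 0.25, 0.5 and 1 µM, and 1 from 0.15 to 0.25 µM, and limma on log2(FPKM + 1) or log2(FPKM + 0.1) with the filter called 5 at 0.25 and 0.5 µM. Over all genes, limma with every gene above 0 called 6930, 11794, 12786 and 12552 at the 4 doses, and 1783 from 0.15 to 0.25 µM. With the filter, at 0.25 and 0.5 µM, it called 12799 and 13601 on log2(FPKM + 1) and 13554 and 14434 on log2(FPKM + 0.1). The fit of the 2 groups alone called 1 member from 0.15 to 0.25 µM, beside 1866 of all genes. The block in the fit of 2 groups called 6 members from 0.25 to 0.5 µM, beside 9935 of all genes. Library totals gave a log2 fold change of 0.037 for EED at 0.15 µM and 0.0506 for BMI1 at 0.25 µM, and there limma gave EED 0.0187 (pseudocount 1, with either filter) or 0.0286 (pseudocount 0.1), and BMI1 0.0249 or 0.0258.

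Leaving out 1 library at a time gave 6 to 7 members called at 0.15 µM, 8 to 9 at 0.25 µM, 8 to 10 at 0.5 µM, 8 to 9 at 1 µM, 3 to 4 from 0.15 to 1 µM, 1 to 3 from 0.15 to 0.25 µM, 2 to 5 from 0.25 to 0.5 µM and 0 in each such fit from 0.5 to 1 µM. The 1 came without replicate 2 at 0.25 µM and the 5 without replicate 3 at 0.5 µM. Over all genes, leaving out 1 library called 10604 to 13105 at 0.15 µM and 13654 to 15591 at 0.25 µM. It called 15025 to 16380 at 0.5 µM and 14880 to 16511 at 1 µM. From 0.15 to 1 µM it called 8893 to 11475, from 0.15 to 0.25 µM 1704 to 4022 and from 0.25 to 0.5 µM 5810 to 8265. The log2 change of the ratio at 1 µM ranged from 1.27 to 1.48 for EZH1 to EZH2, 1.31 to 1.60 for RING1 to RNF2, 0.30 to 0.42 for BMI1 to PCGF2 and 1.23 to 1.43 for CBX7 to CBX8. RING1 ranged from -0.0207 to 0.2948 at 0.15 µM and from -0.1119 to 0.1652 at 0.25 µM, negative only without replicate 3 of the lower dose or replicate 1 of the higher. EZH1 became -0.0007 at 0.5 µM without replicate 3 of that dose. From 0.15 to 1 µM, EZH1 was -0.0032 with no filter on low counts and ranged from -0.0334 to 0.0557, and MTF2 from -0.0318 to 0.094. Without replicate 3 of both 0.25 and 0.5 µM, 9, 8, 9 and 10 members were called at the 4 doses. Of the 24200 genes tested in that fit, 13846, 15100, 15964 and 16920 were called.

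With the replicate block in the fit of all libraries, 6, 8, 9 and 8 members were called at the 4 doses, and the block changed no other call. Of all genes, that fit called 12136, 14750, 15816 and 15808. Same-numbered libraries deviated together between 0.25 and 0.5 µM only, most in the third replicates, and pairing apart from these was not tested.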
